A study of Arabidopsis thaliana with 6 samples.

Results

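TAS1A, TAS1B and TAS1C are non-coding genes of Arabidopsis thaliana whose transcripts are turned into trans-acting small interfering RNAs. The small RNAs described here are the 82 sequences, of 18124 distinct sequences listed in leaf small RNA libraries, that matched these loci over their full length, without mismatch and on either strand. Of the 82, 23 matched TAS1A, 12 matched TAS1B and 56 matched TAS1C, and 5 of these were shared between loci. The choice used sequence only, but the table lists only sequences whose highest library is 20.07 or more. Rarer TAS1 sequences were not analysed here, and the 82 are not all TAS1 small RNAs. The least value for listing was reached in both genotypes by 74 of the 82, in WT alone by 6 and in rdr1 alone by 2, and the direction of those 8 is largely set by the listing. Of all 18124 sequences, 8.69% were listed through WT alone and 27.4% through rdr1 alone.

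Small RNA sequencing compared 3 libraries of wild type (WT) plants with 3 of the rdr1 mutant, which the labels name without an allele. All 6 came from leaves of untreated plants kept at a constant 22 °C with 16 h of daylight; the labels give no age. RDR1 belongs to the RNA-dependent RNA polymerases, which make double-stranded RNA from an RNA template. The question for TAS1 is whether its small RNAs are altered when RDR1 is mutated. Nothing in the labels says whether replicates were grown or extracted separately, so p-values reflect only how these libraries vary, and that variation may be technical.

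TAS1 transcripts are cut by an ARGONAUTE protein loaded with the microRNA miR173. RDR6, a relative of RDR1, together with SGS3 then copies the fragment downstream of the cut, and the Dicer-like enzyme DCL4 cuts the double strand in steps of 21 nt, starting at the miR173 cut. The products therefore lie in a register, and some of them guide the cutting of mRNAs of other genes, among them the HEAT-INDUCED TAS1 TARGET (HTT) genes of heat tolerance. Other Dicer-like enzymes make longer products, with DCL2 known for 22 nt and DCL3 for 24 nt.

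The miR173 site of each locus is shown first, because the register of every sequence was counted from it. Sites are written 5′ to 3′ as DNA letters of the transcript. Capitals mark bases that differ from the exact complement of miR173, and a base in a G:U pair counts as different.
TAS1A site: gtgatttTtctctAcaagcgaa
TAS1B site: gtgatttTtctcAAcaagcgaa
TAS1C site: gtgatttTtctctAcaagcgaa
The sites of TAS1A and TAS1C had 2 such differing bases of 22 and were identical, and that of TAS1B had 3. The next best site had 10 differing bases in TAS1A, 8 in TAS1B and 9 in TAS1C, so each transcript held a lone candidate. All 3 genes lie on the minus strand of TAIR10.1 and are annotated as a single exon: TAS1A (AT2G27400) at chr2:11721539-11722468, TAS1B (AT1G50055) at chr1:18549204-18550042 and TAS1C (AT2G39675) at chr2:16537288-16538277. The cut was placed opposite nt 10 and 11 of miR173, which left 552 nt of TAS1A, 466 nt of TAS1B and 612 nt of TAS1C downstream. TAS1B overlaps AT1G07613, annotated as MIR5636, and TAS1C overlaps AT2G39670, but 0 of the 82 sequences lay in an overlap. The level of mature miR173 was not analysed here.

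The sequences that made up most of the TAS1 value are shown next, with the 5′ nucleotide in capitals because it bears on ARGONAUTE sorting. Each name gives the locus, the strand and the distance of the 5′ end from the cut in nt.
TAS1C sense 63: Ttctaagttcaacatatcgac
TAS1C antisense 124: Ttttgcatatcctggaatatg
TAS1C sense 148: Atgtgttcaagtaaatgagat
TAS1C sense 169: Tttcaagtcgtctaaagaacagtt
TAS1A sense 126: Gagaaatggaagatatcgtga
TAS1A antisense 144: Acgatatcttccatttctcta
TAS1B sense 189: Tatttgtaatatttttatgtt
TAS1A, TAS1B and TAS1C shared: Ttctaagtccaacatagcgt
TAS1C sense 169 is of 24 nt, the shared sequence of 20 nt and the others of 21 nt. Over the 6 libraries the leading 3 sequences, all of TAS1C, held 22.1%, 19.6% and 13.7% of the TAS1 value. At the other end, the sequence with the lowest mean, of 24 nt at TAS1C antisense 204, held 0.0308%.

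Values are normalised read counts, scaled to 8000000 reads of a library total, and all values without another unit are on this scale. The totals behind the scaling ran from 4668411 to 9955668 reads, and the TAS1 sequences held between 10201 reads in WT replicate 1 and 39341 reads in WT replicate 3. The size profile varied within genotypes: lengths of 20 to 22 nt made up 26.5% of the listed sum in WT replicate 1, while the other 5 libraries had between 37.8% and 55.0%. Lengths of 28 to 34 nt made up 35.3% in WT replicate 1 and 4.87% in rdr1 replicate 1, the extremes. As a check of the tissue, chloroplast sequences made up between 14.7% and 19.5% of the listed sum, and the pollen-enriched MIR845a and MIR845b had 0 listed sequences. mRNA markers of leaf are not measured by small RNA sequencing. The RDR1 gene had 0 listed sequences, which leaves the labels of genotype unchecked.

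TAS1C gave most of the listed TAS1 small RNA, TAS1A less and TAS1B least, in all 6 libraries. Shared sequences were divided equally between their matches. The TAS1C sum was 12568, 17969 and 27373 in WT replicates 1 to 3 and 20640, 28451 and 21358 in rdr1 replicates 1 to 3. TAS1A summed to 1807, 2709 and 3264 in WT and 2577, 2616 and 2941 in rdr1. TAS1B had 465, 694 and 976 in WT and 767, 1136 and 714 in rdr1. The order of the loci was the same in each library, and no locus came near its neighbour: TAS1C exceeded TAS1A between 6.63 and 10.9 times and TAS1A exceeded TAS1B between 2.30 and 4.12 times. For each locus WT replicate 1 was the lowest library and the genotypes overlapped. The TAS1C share of the TAS1 sum averaged 85.1% ± 1.31 for WT and 86.6% ± 1.55 for rdr1 (SD over 3 libraries each, exact two-sided permutation p = 0.3, 0.533 adjusted over 4 shares). The smallest p that 3 against 3 can give is 0.1.

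Summed over the 3 loci, TAS1 small RNAs did not pass the test between genotypes. The sum was 14839, 21372 and 31613 in WT replicates 1 to 3 and 23984, 32203 and 25013 in rdr1 replicates 1 to 3, or 22608 ± 8455 and 27067 ± 4478 (SD, n = 3 each). WT libraries span the wider range and enclose 2 of the 3 rdr1 libraries. In limma on log2 of the value plus 1, fitted over all annotated loci, the log2 fold change was 0.32 (SE 0.45, Benjamini-Hochberg adjusted p = 0.675), and the exact permutation p of the sums was 0.4 (n = 3 each). By locus, the log2 fold change in limma was 0.10 ± 0.44 (SE) for TAS1A, 0.33 ± 0.47 for TAS1B and 0.34 ± 0.46 for TAS1C, with adjusted p of 0.867, 0.677 and 0.656. Over all 1175 annotated loci tested, 0.17% were called and the median log2 fold change was 0.14; with the TAS1 sum in place of its loci, 0.171% of 1173 were called. These SEs are larger than the fold changes beside them. In whole-leaf RNA, fewer cells of a type and less small RNA per cell cannot be told apart.

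**Figure D1:**
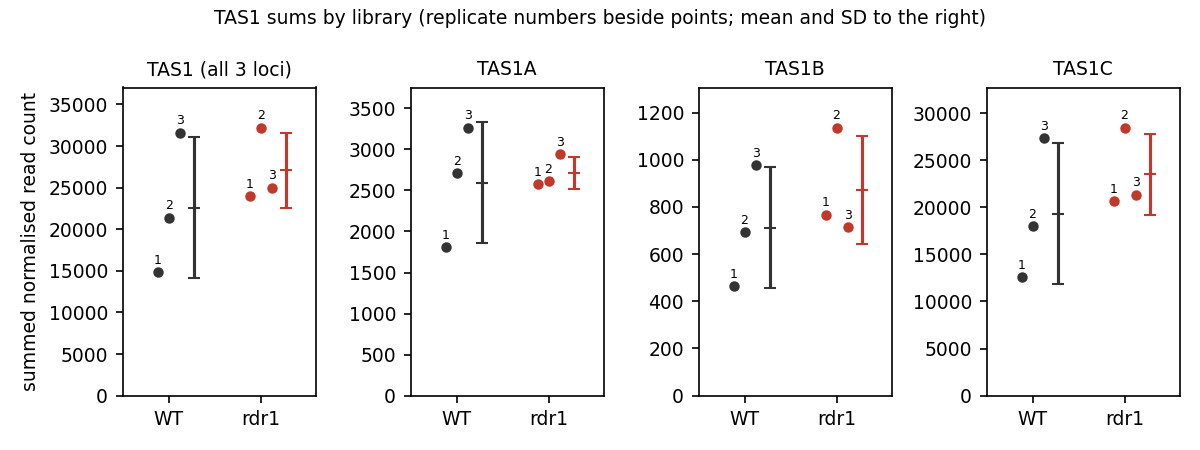
Summed normalised read count (vertical axes, from 0) of the TAS1 sequences in each library, for all 3 loci and for each locus; numbers beside points are replicates, and bars give mean and SD of 3 libraries. WT replicate 1 is the lowest point in each panel, from 14839 for TAS1 as a whole to 465 for TAS1B, and the genotypes overlap in each.

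The direction of the TAS1 sum depended on the scaling and on WT replicate 1. With median of ratios scaling the log2 fold change was -0.15, with scaling to the sum of listed sequences of 20 to 22 nt it was 0.04, and without WT replicate 1 it was 0.05, so no direction is given for it. As a percentage of the listed sum of 20 to 22 nt, TAS1 made up 2.78%, 2.29% and 2.66% in WT replicates 1 to 3 and 2.11%, 3.05% and 2.85% in rdr1 replicates 1 to 3. On this scale WT replicate 1 was no longer the lowest library, and rdr1 replicate 1 was.

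No single TAS1 sequence passed the test. All 82 were tested, and limma called 0 at an adjusted p under 0.05 over 18043 sequences, of which 0.216% were called; 1 of the 82 had an unadjusted p under 0.05. An unadjusted p under 0.05 was found for 2.45% of all sequences. With edgeR on recovered reads 0 of the 82 were called and 1 had an unadjusted p under 0.05, against 0.371% and 3.35% of all sequences. With DESeq2 the counts were 0 and 3, against 0.787% and 6.97%. With array weights in limma 2 were called, against 6.79% of all sequences. Groups did not overlap for 5 of the 82, or 6.1%, against 5.29% of all sequences tested, a share near the background. Of these, 3 were lower in rdr1, against 2.31% of all sequences, and 2 were higher, against 2.98%. Of the 5, antisense 196 of TAS1C was listed through WT alone and sense 273 of TAS1C through rdr1 alone, so their lack of overlap is no support for a difference. The median log2 fold change of the 82 was 0.32, and that of all sequences tested was 0.47. With the deposited scaling 63 of the 82 TAS1 sequences were higher in rdr1, against 65.8% of all sequences tested. With median of ratios scaling 22 of the 82 were higher, against 50.8% of all. Without WT replicate 1 it was 34 of 81, against 52.8% of all.

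TAS1C sense 63, the most abundant TAS1 sequence (chr2:16537816-16537836), opens the cycle that begins 63 nt from the cut. It had 2581, 4863 and 7247 in WT replicates 1 to 3 and 5344, 7000 and 5964 in rdr1 replicates 1 to 3. WT replicate 1 was low, WT replicate 3 was the highest of the 6, and the groups overlapped (limma log2 fold change 0.43 ± 0.72 (SE), adjusted p = 0.753). TAS1C antisense 124 (chr2:16537775-16537795) had 2716, 3159 and 6163 in WT and 5065, 7878 and 4272 in rdr1. TAS1C sense 148 (chr2:16537731-16537751) had 1772, 2870 and 4375 in WT and 3716, 4378 and 3375 in rdr1. In both, WT replicate 1 was again the lowest and the groups overlapped.

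At TAS1A the leading sequences were the strands of a duplex. TAS1A sense 126 (chr2:11721944-11721964) had 431, 845 and 906 in WT and 729, 504 and 979 in rdr1. Its log2 fold change in limma was 0.04 ± 0.61 (SE, adjusted p = 0.959). Its partner, TAS1A antisense 144 (chr2:11721946-11721966), had 207, 304 and 477 in WT and 478, 452 and 379 in rdr1. Together they form a duplex with 2-nt 3′ overhangs, the form in which Dicer-like enzymes release small RNAs. The sense strand exceeded the antisense strand in each library, between 1.11 times in rdr1 replicate 2 and 2.77 times in WT replicate 2, and this ratio does not depend on library scaling. It averaged 2.25 ± 0.462 for WT and 1.74 ± 0.757 for rdr1 (SD over 3 libraries each), with overlapping groups. Listed duplexes of this form with 21 nt on both strands numbered 3 in all, the others being at TAS1C.

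In the TAS1C duplexes too, the sense strand exceeded its exact antisense partner in every library. For sense 105 (Atattccaggatatgcaaaag, chr2:16537774-16537794) and antisense 123 (Tttgcatatcctggaatatgt, chr2:16537776-16537796) the ratio lay between 6.31 and 8.76. The abundant antisense 124 starts 1 nt away from this antisense strand and is not part of the ratio. Its mean over the 6 libraries was 4875, against 252 for sense 105 and 34.6 for antisense 123 of 21 nt. A 20-nt form with the 5′ end of antisense 123 had a mean of 54.7 and was not part of the ratio either. For sense 157 (Agtaaatgagattttcaagtc, chr2:16537722-16537742) and antisense 175 (Cttgaaaatctcatttacttg, chr2:16537724-16537744) the ratio lay between 1.25 and 2.89. The 3 most abundant TAS1C sequences had no listed 21-nt partner, which says only that such a partner did not reach the level needed for the table or was not analysed here.

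TAS1B was represented by few sequences. TAS1B sense 189 (chr1:18549460-18549480) was the most abundant of the 7 found at TAS1B alone, with 163, 127 and 211 in WT and 179, 331 and 164 in rdr1. Replicate 2 of rdr1 stood highest and the other rdr1 libraries lay within the WT range (limma log2 fold change 0.38 ± 0.63 (SE), adjusted p = 0.753). TAS1B antisense 98 (chr1:18549571-18549591) had 39.3, 103 and 144 in WT and 107, 117 and 90.9 in rdr1. Antisense 225, Taaaatatgtttcgttaacat (chr1:18549444-18549464), had 39.3, 63.2 and 72.3 in WT and 48.9, 109.7 and 58.2 in rdr1. In antisense 98 the groups overlapped with WT replicate 1 low, and in antisense 225 rdr1 replicate 2 was again the highest. Antisense 39, Gtgaatggttagataccgatg (chr1:18549630-18549650), had 43.6, 35.6 and 76.3 in WT and 45.2, 104.5 and 48.5 in rdr1, also with rdr1 replicate 2 highest. Of the 818 distinct 20-nt windows of the TAS1B transcript, 63 also occur in TAS1A and 28 in TAS1C.

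The transcripts have few stretches in common. Only 7 windows of 20 nt occurred in all 3 transcripts, and 4 of the 82 sequences, of 18 to 20 nt, matched all 3 loci there. The 20-nt shared sequence lay 105 nt from the cut of TAS1A (chr2:11721966-11721985) and TAS1B and 42 nt from that of TAS1C, on register 0 in each. It had 209, 457 and 559 in WT and 502, 485 and 475 in rdr1. A second 20-nt sequence, Tctaagtccaacatagcgta, starts 1 nt later and had 109, 262 and 287 in WT and 242, 278 and 255.7 in rdr1. The 19-nt form, Ttctaagtccaacatagcg, averaged 65.3 over the 6 libraries. Acaagcgaatgagtcattca, shared by TAS1A and TAS1B and starting 1 nt from the cut, averaged 51.2. In all 4 the lowest library was WT replicate 1, and the groups overlapped. The 5 shared sequences made up between 2.53% and 4.14% of the TAS1 sum, the 21-nt form at this place was not analysed here, and 77 of the 82 had 1 genomic match.

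All 82 sequences lay downstream of the miR173 cut and 0 upstream. Those of TAS1A reached from the cut to 339 nt, those of TAS1B to 225 nt and those of TAS1C from 38 to 273 nt. The first nucleotide after the cut was the 5′ end of TAS1A sense 0, Tacaagcgaatgagtcattc (chr2:11722071-11722090), the fragment that begins at the cut itself. It had 16.0, 28.5 and 68.3 in WT and 61.5, 36.0 and 41.2 in rdr1.

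**Figure D2:**
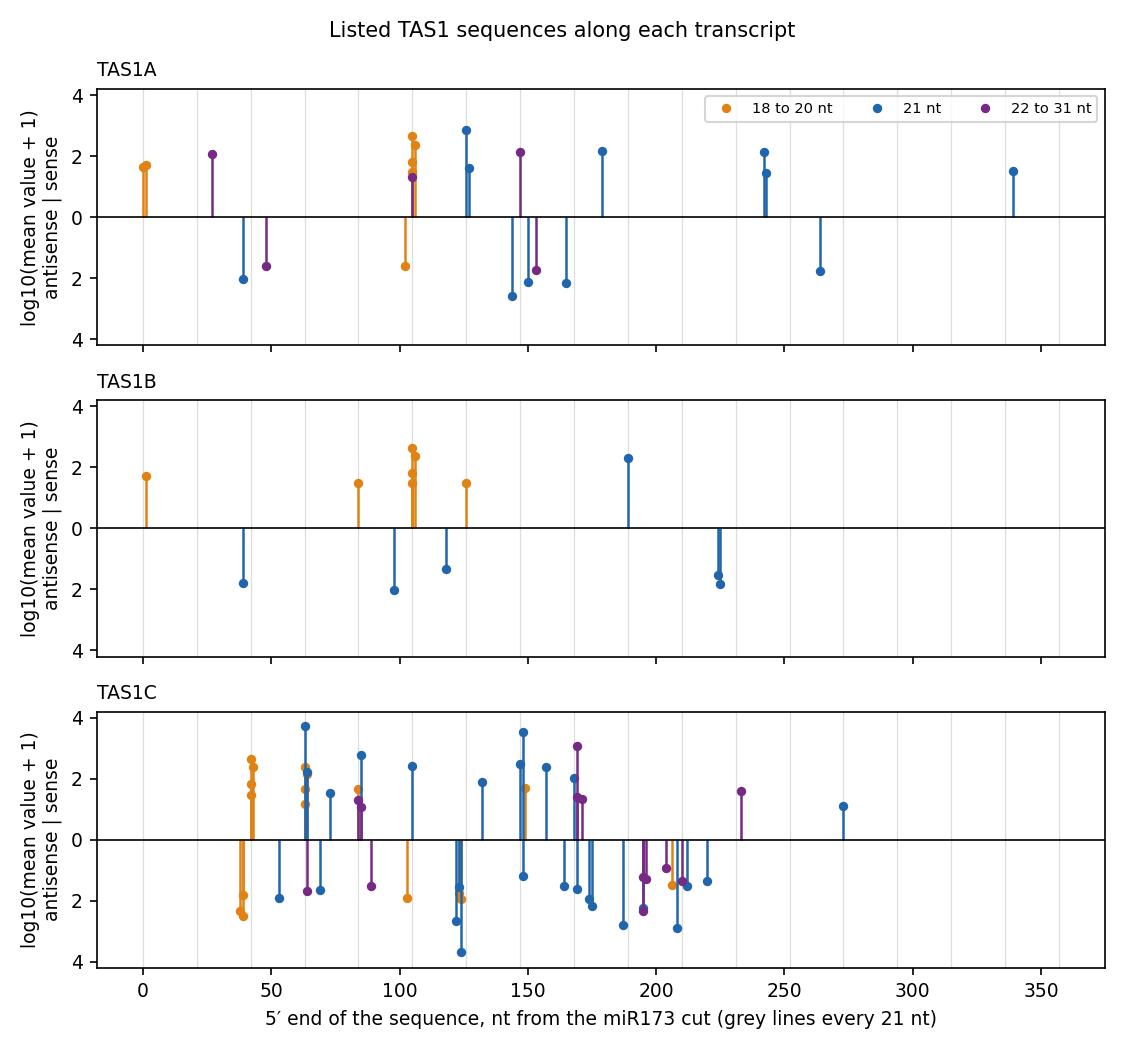
Each listed TAS1 sequence by the position of its 5′ end (horizontal axis, nt from the miR173 cut) and its mean over 6 libraries (vertical axis, log10 of the mean plus 1; sense upward, antisense downward), with colour for length. Sequences begin at the cut and none is upstream; in-register sense sequences stand on a grey line, and in-register antisense sequences stand 3 nt before one.

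The register of a sequence is the place of its 5′ end in the 21-nt cycle counted from the cut, with register 0 for a 5′ end exactly in step. For antisense sequences it is that of the sense partner that would leave 2-nt 3′ overhangs. TAS1 sequences gathered on registers 0 and 1. Register 0 held 28 of the 82 sequences and between 32.3% and 40.6% of the TAS1 sum in each library, and register 1 held 15 sequences and between 45.8% and 52.0%. An even spread over the registers would give 4.76% to each. The exact 95% binomial interval of such a share was at most 1.95 percentage points wide, covering counting error only.

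Genotypes overlapped in the register share. In register 0 lay 32.3%, 40.6% and 38.5% of the sum in WT replicates 1 to 3 and 38.9%, 35.7% and 40.1% in rdr1 replicates 1 to 3, with WT replicate 1 lowest. The difference of rdr1 minus WT was 1.11 percentage points (exact permutation p = 0.8, n = 3 each, 0.8 adjusted over 4 shares), and it was -1.30 without WT replicate 1 and -0.46 among sequences of 21 nt, so no direction is given.

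The loci differed in which register led. At TAS1A register 0 held between 59.4% and 72.2% of the locus sum and register 1 between 3.42% and 7.07%. At TAS1B they held between 55.2% and 65.4% and between 10.2% and 16.0%. At TAS1C the order was the other way in each library, with between 27.2% and 35.9% on register 0 and between 53.0% and 60.4% on register 1. The ranges of TAS1C and of the other loci did not meet for either register.

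**Figure D3:**
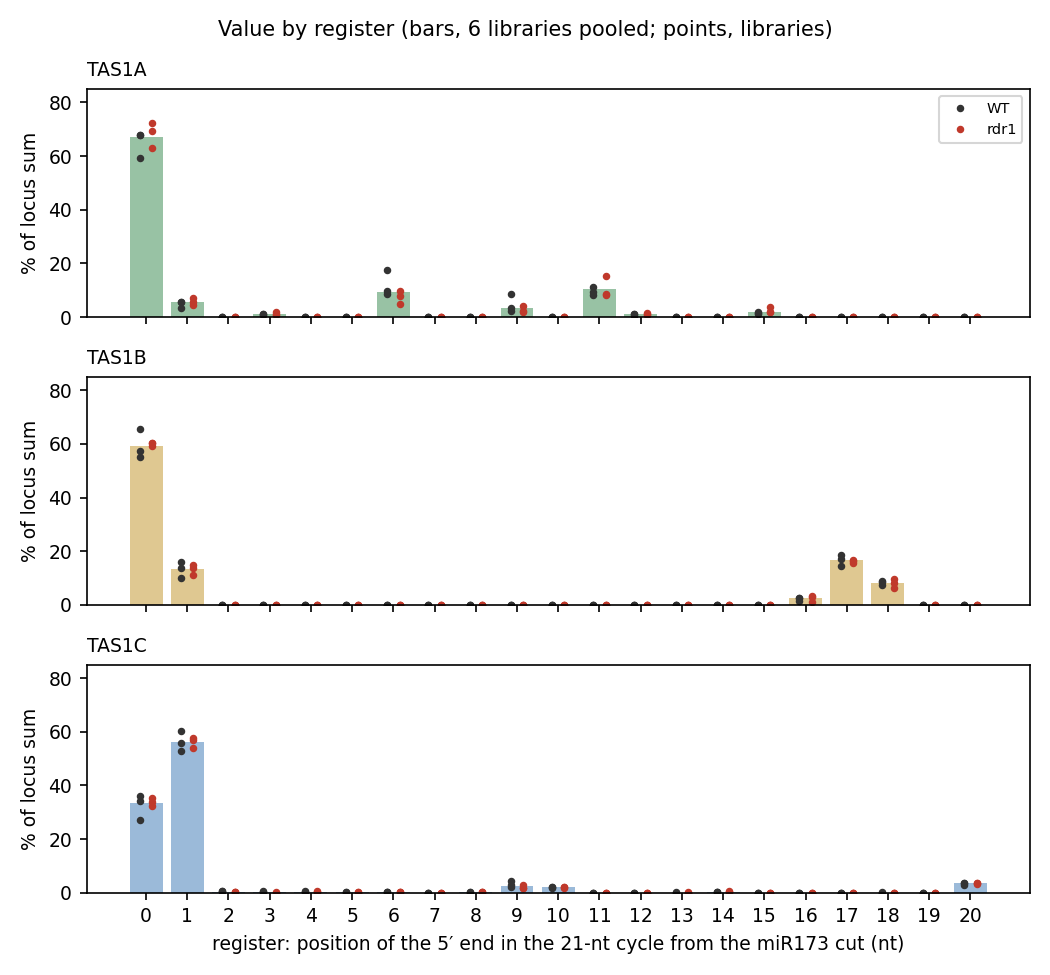
Percentage of each locus sum (vertical axis) by register (horizontal axis, nt in the 21-nt cycle from the miR173 cut); bars pool the 6 libraries and points are single libraries, WT left and rdr1 right. Register 0 leads at TAS1A and TAS1B, register 1 leads at TAS1C with 53.0% to 60.4%, and points of both genotypes lie together.

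Along TAS1C the register that held most of the value moved by 1 nt between cycles 4 and 5. In cycles 1 to 4, register 0 held between 85.9% and 89.3% of the value and register 1 between 4.86% and 6.34%. From cycle 5 to cycle 14, register 0 held between 5.31% and 6.09% and register 1 between 80.5% and 83.1%. These ranges cover all 6 libraries of both genotypes, and the division into these cycles was chosen after the values were seen, so no test is given. By single cycle, register 0 led in cycles 2, 3 and 4 and register 1 in cycles 5, 6, 8, 9 and 10. Cycle 7 was led by register 6, and the single sequences of cycles 1, 12 and 14 were on registers 20, 2 and 0. In cycle 3 register 0 held 51.3%. Cycle 4 held 28.8% of the TAS1C sum, against 1.05%, 2.16% and 1.63% in cycles 1 to 3. The leading sense sequence of cycle 4 began 63 nt from the cut and that of cycle 5, Aactagaaaagacattggaca (chr2:16537794-16537814), began at 85 nt, a step of 22 nt in place of 21. That sequence had 295, 587 and 812 in WT and 464, 629 and 670 in rdr1, with WT replicate 1 low and overlapping groups. On the antisense strand, antisense 122, Ttgcatatcctggaatatgtc (chr2:16537777-16537797), had a mean of 462 on register 20, and so counted to cycle 5. Its 5′ end is 1 nt from that of antisense 123, on register 0 of cycle 6. Antisense 103 of cycle 5 had a mean of 77.9 on register 1. Antisense 39 of cycle 2, before the step, was on register 0, and antisense 124 of cycle 6, antisense 187 of cycle 9 and antisense 208 of cycle 10 were on register 1. Antisense 187, Ttctttagacgacttgaaaat (chr2:16537712-16537732), had a mean of 604, and antisense 208, Aagtaactgtattagcaactg (chr2:16537691-16537711), a mean of 803.

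TAS1A and TAS1B had no such step within the cycles that held most of their value. At TAS1A, cycle 7 alone held 50.5% of the locus sum, with register 0 leading in it at between 74.6% and 87.8%. Register 0 also led in cycles 1, 5, 6 and 8. Cycle 2, close to the cut and with 9.78% of the locus sum, was led by register 6. Over the 6 libraries register 6 held 44.2% of cycle 2, and between 25.2% and 64.7% by library. Farther from the cut, TAS1A sense 179 (Agcattggatatattctagga, chr2:11721891-11721911) of cycle 9 and sense 242 (Tttctacttaatgaacagttg, chr2:11721828-11721848) of cycle 12 were on register 11. They are 63 nt apart, which is 3 cycles, and their means were 144 and 131. TAS1A antisense 165, Ccattactacaaatatcattc (chr2:11721925-11721945), on register 0 in cycle 8, had 77.1, 155 and 139 in WT and 144, 135 and 188 in rdr1, with WT replicate 1 low and overlapping groups. At TAS1B register 0 led in cycles 2, 6, 7 and 10, while antisense 98 and 224 were on register 17. TAS2, the neighbouring gene that miR173 also cuts, had between 53.4% and 59.2% of its value on register 0 and between 20.05% and 23.9% on register 2.

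Sense and antisense sequences were close in number, at 40 and 42 of the 82. The antisense share of the sum was 39.8%, 35.9% and 39.9% in WT replicates 1 to 3 and 39.9%, 44.1% and 37.2% in rdr1 replicates 1 to 3. Sense sequences held the larger part in all 6 libraries, and rdr1 replicate 2 had the highest antisense share (difference 1.88 percentage points, exact permutation p = 0.4, n = 3 each, 0.533 adjusted over 4 shares). The difference was 0.055 points without rdr1 replicate 2, 0.560 without WT replicate 2 and 3.46 without rdr1 replicate 3. The strands were uneven along TAS1C. Antisense sequences held 100% of the value in cycles 1, 2 and 10 and 95.3% in cycle 6, but 0.520% in cycle 4 and 6.36% in cycle 8. In cycles 3, 5, 7 and 9 they held 25.8%, 45.3%, 37.6% and 44.5%, and in cycles 12 and 14, with 1 sequence each, 0. Sequences on register 20 lie 1 nt before the next cycle, among them antisense 38 in cycle 1 and antisense 122 in cycle 5. The antisense shares of these cycles depend on where the cycles are divided.

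The 5′ nucleotide, which the choice of sequences did not use, was mostly T (U in the RNA) or A. ARGONAUTE1 is known to prefer U and ARGONAUTE2 A. Of the 43 TAS1 sequences of 21 nt, 18 began with T, 18 with A, 5 with C and 2 with G. Among all 1472 listed sequences of 21 nt the shares were 29.6% T, 22.1% A, 24.9% C and 23.3% G, against 41.9% T and 41.9% A in TAS1. By value, T held between 58.3% and 64.7% of the TAS1 sum of 21 nt and A between 31.1% and 34.1% across the 6 libraries. These are descriptions, since overlapping sequences of a cycle are not independent. The base composition of the loci was not taken into account, and sorting by ARGONAUTE proteins was not tested.

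Sequences of 21 nt were the main product in every library. They made up 73.4%, 79.3% and 84.0% of the TAS1 sum in WT replicates 1 to 3 and 84.9%, 86.4% and 81.6% in rdr1 replicates 1 to 3. WT replicate 1 was lowest, and rdr1 replicate 3 lay within the WT range. The means were 78.9% ± 5.30 for WT and 84.3% ± 2.42 for rdr1 (SD, n = 3 each, exact permutation p = 0.2, 0.533 adjusted over 4 shares). The difference of 5.40 points was 2.65 without WT replicate 1 and 7.94 without WT replicate 3. The 21 sequences of 18 to 20 nt made up between 6.91% and 11.2%, and 2 sequences of 22 nt made up between 0.146% and 0.284%.

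Shorter forms trailed the leading 21-nt sequence of TAS1C. From the 5′ end 63 nt from the cut came forms of 21, 20, 19 and 18 nt, with means of 5500, 237, 45.4 and 13.7. The 21-nt form held between 94.3% and 95.8% of the series in each library. At antisense 124 the 21-nt form held between 97.9% and 98.9%, with the rest at 20 nt. At both of these 5′ ends the 21-nt form was the leading one in all 6 libraries. At TAS1C antisense 123 the 20-nt form led instead, with between 53.6% and 69.4%. At TAS1C sense 64 the 20-nt form held between 40.2% and 52.9%, and the 21-nt form the rest.

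Longer TAS1 sequences were fewer and held less of the value. The 9 sequences of 24 nt made up 17.7%, 7.93% and 6.09% of the TAS1 sum in WT replicates 1 to 3 and 4.70%, 4.56% and 7.94% in rdr1 replicates 1 to 3. WT replicate 1 stood apart from the other 5 libraries, and rdr1 replicate 3 lay within the WT range. TAS1C sense 169 (chr2:16537707-16537730), of 24 nt and on register 1, held most of this class, with 1654, 1091 and 1237 in WT and 738, 1016 and 1300.2 in rdr1, and its limma log2 fold change was -0.40 ± 0.62 (SE, adjusted p = 0.753). TAS1A sense 147, Atgatatttgtagtaatggcgaaa (chr2:11721920-11721943), had 173, 142 and 183 in WT and 80.3, 125 and 128 in rdr1, with each rdr1 library below each WT library. It was the 1 of 9 TAS1 sequences of 24 nt whose groups did not overlap, while groups did not overlap for 17.8% of all listed sequences of 24 nt.

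With the deposited scaling, the 9 listed sequences of 24 nt and the 6 of 29 to 31 nt had a log2 fold change below 0, and the 21 of 18 to 20 nt had one above 0. Of the 6, 5 were listed through WT alone, so their direction is largely set by the listing; of the 9, 8 reached the least value in both genotypes. Of all sequences of 29 to 31 nt, 40.9% were listed through WT alone. Among all listed sequences the median log2 fold change was 0.72 at 18 to 20 nt, 0.51 at 21 nt, -0.48 at 24 nt and -0.99 at 29 to 31 nt. In TAS1 the medians were 0.36, 0.39, -0.59 and -1.13, with the shorter classes close together. With median of ratios scaling 8 of the 21 and 13 of the 43 sequences of 21 nt lay above 0, and with DESeq2 6 and 14. Without WT replicate 1 the counts were 6 and 27. The 24-nt sequences lay below 0 in each of these 3 fits. With the deposited scaling, 69.3% of all 1278 tested sequences of 24 nt were lower in rdr1, and 99.4% of 2358 of 29 to 31 nt. At 18 to 20 nt 2.80% of 6989 were lower, and at 21 nt 10.7% of 1472. The part of library fragment length in the TAS1 values was not tested.

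**Figure D4:**
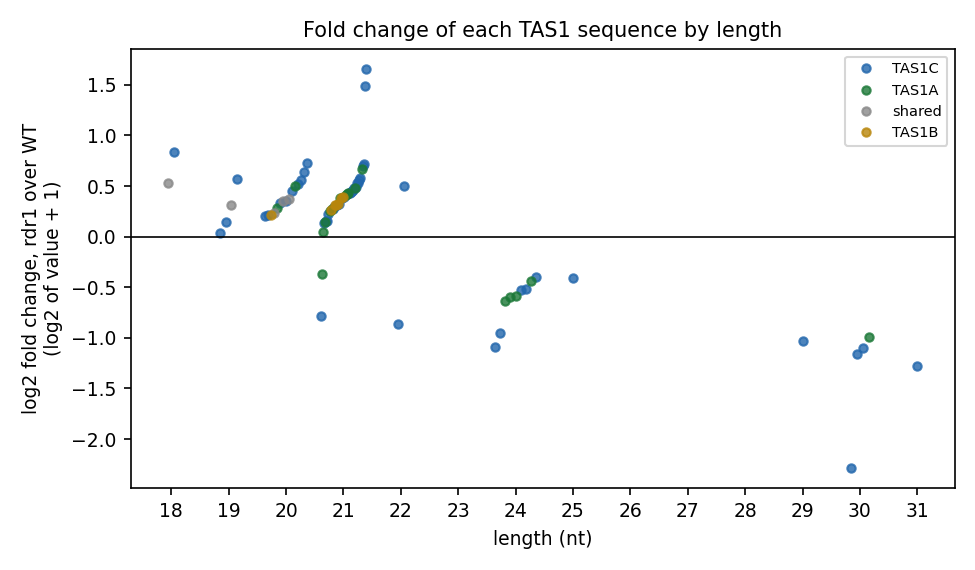
Log2 fold change of rdr1 over WT (vertical axis, on log2 of the value plus 1) of each of the 82 TAS1 sequences by length (horizontal axis, nt, points spread sideways within a length), coloured by locus. With the deposited scaling, sequences of 18 to 20 nt lie above 0, those of 24 nt and longer below 0, and 41 of the 43 of 21 nt above 0. With median of ratios scaling 13 of the 43 do. Of all sequences tested with the deposited scaling, 2.80% of 18 to 20 nt and 10.7% of 21 nt lie below 0.

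A shared 5′ end showed both size classes. From TAS1C antisense 195 came Agcaactgttctttagacgac of 21 nt (chr2:16537704-16537724) and Agcaactgttctttagacgacttg of 24 nt (chr2:16537704-16537727). The 21-nt form had 93.1, 156 and 209 in WT and 147, 194 and 207 in rdr1, and the 24-nt form had 320, 221 and 223 in WT and 134, 158 and 247 in rdr1. The 24-nt form exceeded the 21-nt form in the 3 WT libraries and in rdr1 replicate 3, and lay below it in rdr1 replicates 1 and 2.

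The extremes of the fold change lay at low values of TAS1C. The lowest were 3 long sequences, each listed through WT alone. Tagcaactgttctttagacgacttgaaaat (antisense 196, 30 nt, chr2:16537703-16537732) had 33.5, 48.9 and 8.84 in WT and 1.25, 6.85 and 7.27 in rdr1, with a limma log2 fold change of -2.28 ± 1.06 (SE, adjusted p = 0.753). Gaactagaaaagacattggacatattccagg (sense 84, 31 nt, chr2:16537785-16537815) had 42.2, 44.5 and 1.61 in WT and 1.25, 8.57 and 15.8 in rdr1 (-1.28). Aactagaaaagacattggacatattccagg (sense 85, 30 nt, chr2:16537785-16537814) had 14.5, 23.1 and 3.21 in WT and 0, 6.85 and 16.97 in rdr1 (-1.16). In antisense 196 and sense 84, WT replicates 1 and 2 were the highest libraries, while in sense 85 rdr1 replicate 3 exceeded WT replicate 1. In all 3, rdr1 replicate 1 was lowest, and of these antisense 196 had groups that did not overlap.

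The highest were Tttgttattttgaaaagcttg, Catttacttgaacacattcaa and Ttctaagttcaacatatc. The first (sense 273, chr2:16537606-16537626) had 1.45, 6.23 and 8.04 in WT and 17.6, 27.4 and 8.48 in rdr1, with a limma log2 fold change of 1.65 ± 1.12 (SE, adjusted p = 0.753). The second (antisense 164, chr2:16537735-16537755) had 2.91, 28.5 and 30.5 in WT and 40.1, 56.6 and 32.7 in rdr1 (1.49, and 0.50 without WT replicate 1). The third (sense 63, 18 nt, chr2:16537819-16537836) had 0, 21.4 and 17.7 in WT and 25.1, 11.996 and 6.06 in rdr1 (0.84). WT replicate 1 was lowest in each, and the first and second had groups that did not overlap, the first being listed through rdr1 alone.

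The rest of the trans-acting siRNA pathway was described by a list of 40 loci, of which 14 had listed sequences and 0 were called by limma, with 0 at an unadjusted p under 0.05. Of all 1175 loci tested 0.17% were called and 3.32% had an unadjusted p under 0.05, so counts of 0 among 14 are near the background. The median log2 fold change of the 14 was 0.29, against 0.14 over all loci tested. The WT and rdr1 sums were 7938 ± 3438 and 8711 ± 1364 for TAS2, 2110 ± 931 and 2312 ± 32.5 for TAS3, and 23.7 ± 25.8 and 37.4 ± 18.7 for TAS4 (SD over 3 libraries each). MIR173 was represented by the strand opposite mature miR173, whose WT mean was 360 ± 136 and rdr1 mean 359 ± 143 (SD). Of 14 genes that make or bind small RNAs, DCL1 and AGO2 had listed sequences, and of 12 pentatricopeptide repeat genes, a family that trans-acting siRNAs and miRNAs target, 6 had them. Among these 6, AT1G63080 and AT1G63130 had the same values in all 6 libraries. The 14 loci with listed sequences are therefore not all separate observations. The 5 HTT genes, targets of TAS1 small RNAs, had 0 listed sequences.

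The TAS1 sum exceeded the TAS2 sum between 2.73 and 3.14 times, a narrow range over 6 libraries whose TAS1 sums ran from 14839 to 32203. By the root mean square distance of centred log2 values over the 6 libraries, among 887 loci with a mean of at least 20, the loci most like the TAS1 sum were TAS2 (0.0795), MIR822 and the overlapping gene AT5G03553 (0.1003 each, from the same sequences), MIR396a (0.101) and MIR863 (0.124). TAS1A itself lay at 0.213 and TAS1B at 0.0908 from the sum, of which TAS1C is the main part.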

How the data were processed

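Small RNAs of leaves were sequenced in 3 WT and 3 rdr1 libraries as single-end reads of 50 nt after TRIzol extraction and HD-adapter library preparation, per the labels' protocols. The submitters' processing notes name the TAIR10 build. How reads were trimmed, aligned, filtered and scaled is not given in the sources used here. Normalised signal was deposited by the authors, listed by sequence and library per the file headers. Divided by a library's own step, 100% of the values came out whole (tolerance 0.01 of a read), each step being 8000000 divided by a whole number taken as the scaling total. On these recovered reads edgeR called 67 sequences and DESeq2 142, against 39 in limma.

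Sequences of 17 to 34 nt were matched exactly to TAIR10.1, whose nuclear chromosomes carry the TAIR10 coordinates; all 18124 matched. A sequence inside an annotated gene counted to it, divided equally between its genomic matches. Limma (empirical Bayes with trend, two-sided, Benjamini-Hochberg, threshold 0.05) was fitted on log2 of the value plus 1 for sequences and loci with a mean of at least 5; such fold changes understate changes of low values. Shares were compared with exact permutation tests. Sites, registers and identities come from RefSeq's TAIR10.1 sequence and annotation.

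The members and lists were chosen with earlier results of these data known. Named were each locus, the 4 sequences of highest mean per locus and among shared ones, any called sequence, the 3 lowest and 3 highest fold changes, called pathway loci and the 5 loci of most similar profile; further sequences named for their register, duplex or length were chosen after their values were seen. Alternatives were pseudocounts of 0.5, 5 and 20, other filters, scalings, array weights, a replicate block, each library left out, other ways to divide shared sequences, edgeR and DESeq2. The limma fits were tested on simulated data. Libraries of the same genotype differed by more than sampling noise, with chi-square 8.59 to 52.1 times its degrees of freedom. Intervals cover counting error only, since no molecular identifiers were used. Tables and permutation tests used Python 3.11.15 with scipy 1.17.1, pandas 2.3.3 and numpy 2.4.6, and figures matplotlib 3.10.9. Models used R 4.3.3 with DESeq2 1.42.0, edgeR 4.0.16 and limma 3.58.1.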

Additional observations from a re-analysis of the deposited data

How the results depend on the processing

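Of 284 recomputed fold changes and differences of shares, 261 kept their direction and side of the threshold, 22 reversed and 1, for TAS1C sense 273, became called; some alternatives, such as the register settings for shares that use no register, could not move a value. Of 40 recomputed counts of calls, 39 stayed at 0. With median of ratios scaling the log2 fold change was -0.15 for the TAS1 sum, -0.37 for TAS1A, -0.14 for TAS1B and -0.13 for TAS1C, and with scaling to the sum of 20 to 22 nt it was -0.17 for TAS1A; the cause was not tested. With libraries left out in turn it ranged from 0.05 to 0.59 for the TAS1 sum, -0.14 to 0.29 for TAS1A, 0.05 to 0.59 for TAS1B and 0.07 to 0.63 for TAS1C. Over all alternatives the adjusted p of the TAS1 sum ran from 0.384 to 0.991. The in-register share differed by -0.46 percentage points among sequences of 21 nt and by -1.30 to 2.85 with libraries left out. The number of TAS1 sequences called was 0 in each alternative but array weights, where 2 were called, TAS1C sense 273 (1.96) and the 24-nt TAS1C sense 171 (-1.60).

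For single sequences, TAS1A sense 126 had -0.43 with median of ratios scaling, -0.23 with scaling to 20 to 22 nt, -0.69 with array weights, -0.30 with DESeq2 and -0.30 to 0.29 with libraries left out. TAS1B sense 189 had -0.087 with median of ratios scaling and -0.10 with DESeq2, and TAS1C sense 63 of 21 nt had -0.038 and -0.025. TAS1C sense 63 of 18 nt had -0.24 with array weights and with DESeq2 and -0.61 to 1.63 with libraries left out, and TAS1C sense 85 of 30 nt had -2.06 to 0.028, the latter without rdr1 replicate 1.

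With the replicate number as a block the log2 fold change of the TAS1 sum was 0.32 (limma adjusted p = 0.831) and 0 TAS1 sequences were called. The labels do not say whether same-numbered libraries were handled together. Deviations of same-numbered libraries from the group means correlated at -0.71, -0.30 and -0.53, and no library correlated best with its own number. Deviations taken within groups of 3 cannot decide whether such libraries were paired. Median of ratios scaling moved the median log2 fold change of all sequences from 0.47 to 0.01. Depth limits sequences with few reads, such as the 37 reads of the rarest TAS1 sequence over 6 libraries.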
